A study of Homo sapiens with 3 samples.

Results

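The genes described here encode the chains of collagen, 43 of the 56632 genes in the deposited tables. They were chosen by symbol (COL, digits, A, digits), with COL17A1 left out, and all 43 were found by gene ID in every library. The RNA came from MCF10Ca1h cells, a tumour-forming human line of the MCF10 breast epithelial series, in 3 libraries with 1 library per group. The GSK484 library came from cells given the PADI4 inhibitor GSK484 for 72 h. The CON library came from cells that received a control compound over the same 72 h, which the treatment text names GSK107 while the deposited table carries another compound number. The NT library came from untreated cells. All groups were grown in the same medium with horse serum, no dose was given, and NT had no stated time. With 1 library per group there was no replicate, so a difference below is one between single libraries and no test between conditions was possible.

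Collagens are the main structural proteins of the extracellular matrix. A chain carries long runs of glycine-X-Y repeats, and chains wind around each other into a helix, either with copies of themselves or with the partner chains of their type. Fibrillar collagens form the fibres of stroma. Type IV collagen forms the sheet of the basement membrane on which breast epithelium rests, type VII collagen anchors that sheet to the stroma, and FACIT collagens (fibril-associated collagens with interrupted triple helices) coat fibres or lie near basement membranes. In breast tissue, fibrillar collagens are made mostly by fibroblasts, while epithelial cells supply part of the basement membrane.

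Total expected counts were 77220120 in GSK484, 92980847 in CON and 70555229 in NT. Counts were scaled to library size (CPM). Levels are compared between genes only as deposited TPM, which accounts for length. A gene was called measured at 1 CPM or more. The floor for a gene with no reads was set at 3 counts, equal to 0.039 CPM for GSK484, 0.033 CPM for CON and 0.042 CPM for NT. Intervals are exact 95% intervals and, like this floor, cover counting error only. Of the epithelial markers, all 12 were measured, 7 higher and 3 lower with GSK484 than with CON beyond counting error, beside 26.9% and 27.4% of all genes. KRT18 was the most abundant, at 4256, 3875 and 4073 TPM in GSK484, CON and NT. KRT19 (log2 fold -0.44) and KRT14 (-0.31) were lower and KRT5 (0.26) was higher. Of 12 fibroblast markers 4 were measured (FBLN1, FAP, ACTA2 and THY1), and the summed TPM of the list was 73.0 in GSK484, 67.0 in CON and 64.2 in NT. Among these, FAP was higher (log2 fold 0.42) and FBLN1 lower (-0.05) in GSK484 than in CON beyond counting error. FAP was at 11.2 CPM in GSK484, 8.34 CPM in CON and 11.9 CPM in NT. FBLN1 was the most abundant of the list, at 52.0 TPM in GSK484, 49.5 in CON and 44.3 in NT. DCN and LUM, also of this list, had a count of 0 in all 3 libraries. CDH5 was the only measured gene of 7 matched endothelial markers (log2 fold -0.74 for GSK484 against CON), and SOX9 the only one of 6 chondrocyte markers. CDH5 passed the limit in CON alone, at 1.57 CPM, beside 0.937 CPM in GSK484 and 0.968 CPM in NT. In RNA from whole cultures, fewer cells of one type and less RNA per cell cannot be told apart.

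Collagen chain genes took 0.158% of all counts in GSK484, against 0.138% in CON and 0.145% in NT. Among the 43 genes, 17 were measured in at least 1 library, and these held 99.7% to 99.8% of the summed TPM of all collagen chain genes. The sum itself was 533 TPM in GSK484, 471 in CON and 476 in NT. COL16A1 (ENSG00000084636), COL9A3 (ENSG00000092758), COL12A1 (ENSG00000111799), COL4A2 (ENSG00000134871) and COL7A1 (ENSG00000114270) were the 5 highest genes in each library, in this order, and held 78.3% of the summed TPM in GSK484, 80.8% in CON and 79.1% in NT. The expression was therefore concentrated in a few chains, and the same 5 led in each library.

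Type IV chains are encoded by genes that lie head to head, so that a pair shares the stretch between its start sites. RefSeq start sites of COL4A1 and COL4A2 on chromosome 13 are 127 bases apart, and those of COL4A5 and COL4A6 on the X chromosome are 380 bases apart at the nearer of 2 COL4A6 starts. Their windows of 300 bases around the start are shown because the measured type IV genes were these 4, and both genes of each pair were expressed. The sequences are from RefSeq (GRCh38.p14), each on the strand of its gene, with matches to the GC box GGGCGG and to CCAAT, on either strand, in capitals. COL4A1 is at chr13:110307108-110307407 (minus strand), COL4A2 at chr13:110307034-110307333 (plus strand), COL4A5 at chrX:108439588-108439887 (plus strand) and COL4A6 at chrX:108439409-108439708 (minus strand).
COL4A1: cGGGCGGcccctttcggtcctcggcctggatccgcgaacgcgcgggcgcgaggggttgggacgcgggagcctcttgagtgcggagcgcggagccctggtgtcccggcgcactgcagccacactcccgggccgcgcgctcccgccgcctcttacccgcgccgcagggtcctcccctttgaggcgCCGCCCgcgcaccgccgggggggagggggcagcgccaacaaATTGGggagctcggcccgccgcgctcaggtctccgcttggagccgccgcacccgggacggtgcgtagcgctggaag
COL4A2: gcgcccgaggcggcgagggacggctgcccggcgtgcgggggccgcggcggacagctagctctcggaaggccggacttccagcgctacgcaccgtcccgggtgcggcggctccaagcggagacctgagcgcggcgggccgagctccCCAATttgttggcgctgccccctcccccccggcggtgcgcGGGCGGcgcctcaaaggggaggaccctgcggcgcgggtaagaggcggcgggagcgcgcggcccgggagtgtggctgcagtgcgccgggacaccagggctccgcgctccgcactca
COL4A5: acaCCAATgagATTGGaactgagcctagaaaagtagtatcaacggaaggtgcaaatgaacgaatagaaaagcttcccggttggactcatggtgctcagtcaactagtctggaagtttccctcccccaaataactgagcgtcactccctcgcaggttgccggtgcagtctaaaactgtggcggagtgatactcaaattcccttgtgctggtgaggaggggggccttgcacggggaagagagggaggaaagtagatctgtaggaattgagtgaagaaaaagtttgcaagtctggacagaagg
COL4A6: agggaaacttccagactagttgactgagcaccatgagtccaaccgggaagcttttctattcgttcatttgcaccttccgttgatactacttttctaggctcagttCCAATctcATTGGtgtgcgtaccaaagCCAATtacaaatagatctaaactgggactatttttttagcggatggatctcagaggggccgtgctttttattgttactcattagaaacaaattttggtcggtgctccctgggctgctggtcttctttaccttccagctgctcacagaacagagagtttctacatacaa
The COL4A1 and COL4A2 windows overlap by 226 bases and the COL4A5 and COL4A6 windows by 121 bases. The COL4A1 window held 2 GC boxes and that of COL4A2 held 1, while neither window of the X-linked pair shown held one. A CCAAT match lay in all 4 windows, but matches within an overlap are the same bases read on the opposite strand. This held for the COL4A1 and COL4A2 CCAAT match, for the COL4A5 matches within COL4A6, and for the COL4A2 GC box within COL4A1. The 4 windows are thus not separate instances. GGGCGG was found in 44.9% and CCAAT in 34.6% of 34796 RefSeq promoter windows of this length. The GC content was 76.7% in the COL4A1 window and 77.7% in that of COL4A2, against 49.3% for COL4A5 and 43.7% for COL4A6.

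Both ubiquitous type IV chains were expressed, at unequal levels. COL4A2 was at 67.0 TPM in GSK484, 54.2 in CON and 59.5 in NT. COL4A1, the chain it assembles with, was at 17.1, 14.6 and 17.3 TPM in the same order. The COL4A2 level was thus 3.93 times that of COL4A1 in GSK484, 3.70 times in CON and 3.44 times in NT, although their effective lengths were close (5983 and 5831 bases in GSK484). COL4A5, a chain of specialised epithelial basement membranes, was at 7.19 TPM in GSK484, 5.21 in CON and 7.38 in NT. Its neighbour and partner COL4A6 was at 3.59, 2.53 and 3.15 TPM. Both pairs had their lowest TPM in CON. COL4A3 and COL4A4, the chains of the kidney filter, were not measured, with 13, 10 and 7 counts of COL4A3 and 39, 25 and 28 counts of COL4A4 across the GSK484, CON and NT libraries.

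**Figure D1:**
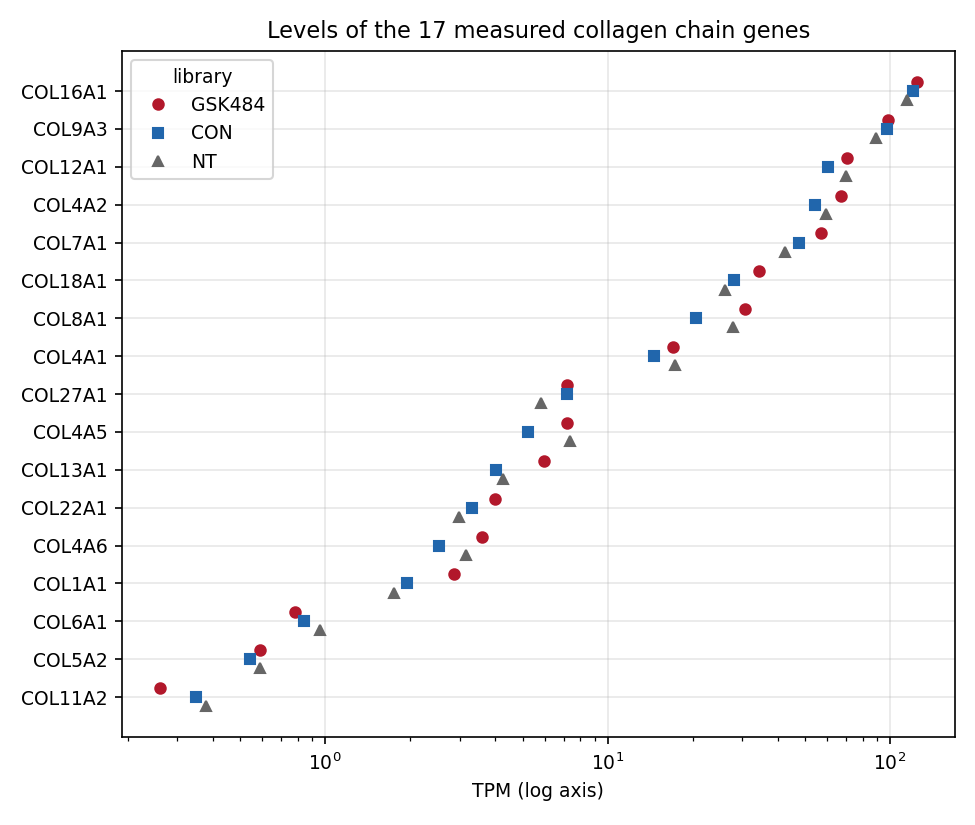
Deposited TPM of the 17 measured collagen chain genes (horizontal log axis) in the GSK484, CON and NT libraries, with 1 point per library. COL16A1 lies highest, between 115.0 and 124 TPM, and COL11A2 lowest, between 0.26 and 0.38 TPM.

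The FACIT group led by level. It summed to 298 TPM in GSK484, 282 in CON and 277 in NT, or 55.9%, 60% and 58.3% of all collagen chain TPM. COL16A1, a FACIT chain found near basement membranes, was the most abundant collagen chain gene, at 124 TPM in GSK484, 121 in CON and 115.0 in NT. It stood at place 1128, 1118 and 1207 among all genes ranked by TPM in those libraries. COL9A3, known as a chain of cartilage type IX collagen, came next at 98.7, 97.7 and 89.2 TPM. COL12A1, a FACIT chain of dense connective tissue, was at 70.6 TPM in GSK484, 60.3 in CON and 69.9 in NT. COL22A1, a chain of tissue junctions, was the only other measured FACIT gene, at 4 TPM in GSK484, 3.32 in CON and 2.99 in NT. The other 6 FACIT genes were below 1 CPM, and COL9A1, COL19A1 and COL20A1 had a count of 0 in all 3 libraries.

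Chains at the interface between epithelium and stroma followed. COL7A1, which forms the anchoring fibrils, was at 56.9 TPM in GSK484, 47.4 in CON and 42.6 in NT. COL18A1, a basement membrane collagen that is the source of endostatin, was at 34.4, 28.1 and 26.1 TPM. COL8A1, a short-chain collagen known from vascular and corneal membranes, was at 30.6 TPM in GSK484, 20.5 in CON and 27.8 in NT. COL13A1, a transmembrane collagen of cell adhesion sites, was the only measured gene of its group, at 5.96, 4.02 and 4.25 TPM. For COL7A1 and COL18A1 the order of libraries by TPM was GSK484, CON, NT, whereas COL8A1 and COL13A1 were lowest in CON. By CPM, COL7A1 and COL13A1 did not differ between CON and NT beyond counting error.

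Fibrillar genes were low. Of 11 genes 4 were measured, and their group summed to 11.1 TPM in GSK484, 10.3 in CON and 8.82 in NT, about 2% of collagen chain TPM. COL27A1, a fibrillar chain known from cartilage, was the highest, at 7.17, 7.18 and 5.82 TPM. COL1A1, the main chain of type I collagen, was at 2.85 TPM in GSK484, 1.95 in CON and 1.75 in NT. COL5A2 was at 0.54 to 0.59 TPM (3.37 to 3.40 CPM) and COL11A2 at 0.26 to 0.38 TPM (0.828 to 1.03 CPM). Of these, COL11A2 lay near the limit of measurement of 1 CPM. COL3A1 and COL5A1 had a count of 0 in all 3 libraries.

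**Figure D2:**
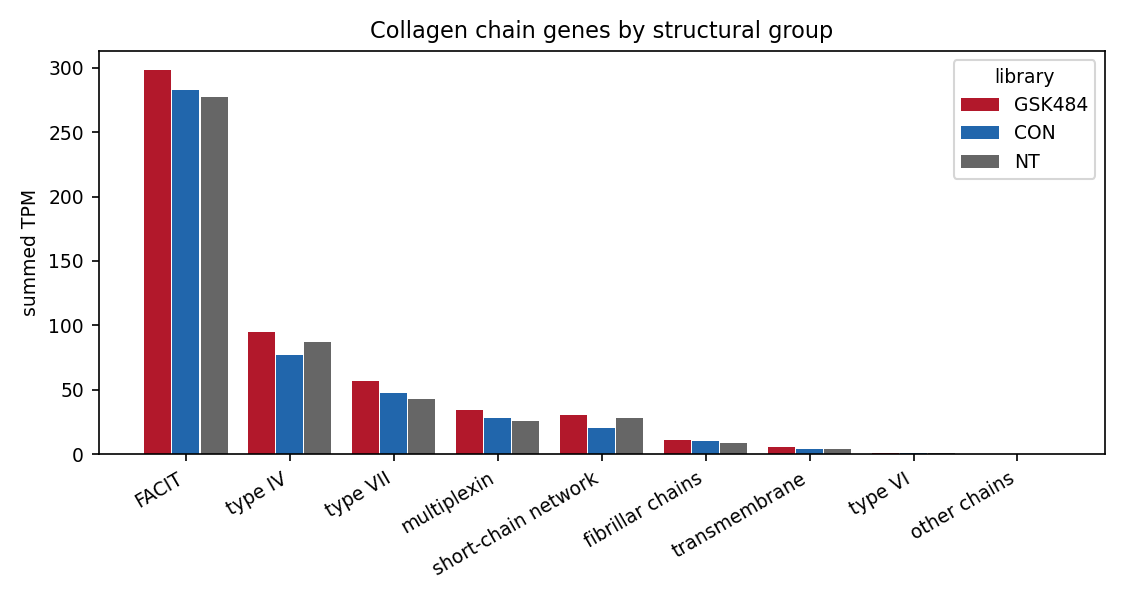
Summed deposited TPM of the collagen chain genes in 9 structural groups (bars start at 0) in the GSK484, CON and NT libraries, with 1 library per bar. FACIT genes reach 277 to 298 TPM, type IV genes 76.8 to 94.9 TPM, and fibrillar genes 8.82 to 11.1 TPM.

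For several expressed chains, few or no reads were found of a chain they are known to assemble with. Counts are given first, to show how many reads each value rests on. COL1A1 had 589 counts with GSK484, 616 with CON and 419 with NT, while COL1A2, its partner in the usual type I molecule, had 0, 1 and 0. COL5A2 had 265, 310 and 240 counts, while COL5A1, the core chain of type V collagen, had 0 in each. COL5A3, the remaining type V chain, was below 1 CPM, with 61, 64 and 58 counts. COL9A3 had 11944, 14756 and 9970 counts, against 39, 40 and 24 of COL9A2 and 0 of COL9A1 in each library. COL6A1 had 198, 239 and 215 counts, COL6A2 had 47, 58 and 24, and COL6A3, which completes the usual type VI molecule, had 7, 4 and 3. By TPM, the level of COL9A3 was 241 times that of COL9A2 in GSK484, 279 times in CON and 595 times in NT. The estimated effective length of COL9A2 was 1433 bases in GSK484, 1357 in CON and 2674 in NT. The larger ratio in NT thus also reflects this length, estimated from few reads. The level of COL6A1 was 3.55, 3.82 and 8 times that of COL6A2, the first 2 of these close to the ratios of COL4A2 to COL4A1 given above. RNA levels were the only readout, and no protein was measured.

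**Figure D3:**
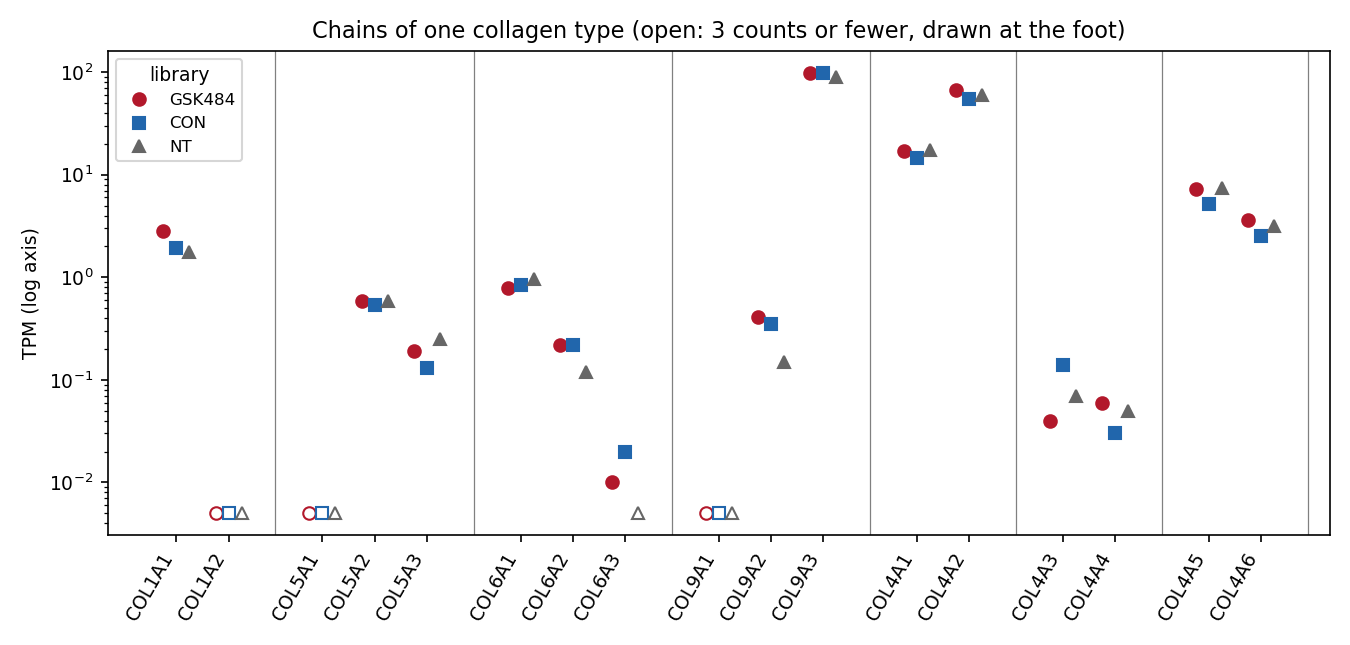
Deposited TPM (vertical log axis) of chains that belong to one collagen type, in the GSK484, CON and NT libraries. Open symbols have 3 counts or fewer and are drawn at the foot, as for COL1A2, COL5A1 and COL9A1 in all 3 libraries; COL9A3 lies at 89.2 to 98.7 TPM.

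The remaining 26 collagen chain genes stayed below 1 CPM in every library, with 0.814 CPM (COL5A3 in NT) as the highest value. COL11A2, just inside the limit, was at 0.963 CPM with GSK484, 1.03 CPM with CON and 0.828 CPM with NT. Among the 26 genes, 13 had no more than 3 counts in any library, 5 of them with 0 throughout. Below the limit, 3 genes differed beyond counting error in at least 1 comparison. The share of all genes below 1 CPM that differed in this way was not counted, so this number has no background. COL2A1, the cartilage fibre chain, had 4 counts for GSK484, 15 for CON and 1 for NT. COL4A4 had 39 counts in GSK484 against 25 in CON (log2 fold 0.86, interval 0.11 to 1.66). COL6A2 had 0.603 CPM with GSK484 and 0.636 CPM with CON, against 0.337 CPM with NT. These values rest on few reads.

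GSK484 against CON compared the PADI4 inhibitor with its control compound after equal exposure. No measured collagen chain gene differed by 1.5-fold in either direction. Beyond counting error, 12 of 17 genes were higher in GSK484 and 1 was lower, where 26.9% of all 13199 genes compared were higher and 27.4% lower. Their median log2 fold was 0.16, against -0.01 over all genes. The share of genes beyond counting error grows with depth. At 50 CPM or more, 7 of 8 collagen chain genes were higher and 1 was lower, where 30.1% of 3973 genes were higher and 42.8% lower. For a fold of at least 2, 0 of the 17 genes were called, beside 0.197% of all genes called higher and 0.273% called lower. At a fold of at least 1.5 the counts were also 0, beside 2.29% and 1.26%.

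COL13A1 had the largest difference, at 9.28 CPM in GSK484 against 7.04 CPM in CON (1.32-fold, log2 fold 0.40, interval 0.24 to 0.56). COL8A1 was at 115 CPM against 89.7 CPM (1.29-fold, log2 fold 0.36, interval 0.32 to 0.41). COL22A1 was at 7.48 CPM in GSK484 and 5.84 CPM in CON (log2 fold 0.36, interval 0.19 to 0.53). These genes belong to a transmembrane, a short-chain and a FACIT group, so the larger differences were spread over structural groups. COL7A1 was at 113 CPM in GSK484 against 93.5 CPM in CON (log2 fold 0.27, interval 0.23 to 0.32). COL18A1 was at 136 CPM and 119 CPM (log2 fold 0.20, interval 0.16 to 0.24), and it was the only measured collagen chain gene whose reads were divided with other genes. Smaller differences were seen for COL12A1 (log2 fold 0.16), COL16A1 (0.09) and COL27A1 (0.10).

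All 4 measured type IV genes were higher in GSK484 than in CON. The log2 fold was 0.20 for COL4A2 (343 CPM against 299 CPM, interval 0.17 to 0.22) and 0.12 for COL4A1 (85.0 CPM against 78.5 CPM, interval 0.07 to 0.16). It was 0.19 for COL4A5 (interval 0.10 to 0.28) and 0.15 for COL4A6 (interval 0.03 to 0.28). Intervals of COL4A5 and COL4A6 overlapped, while those of COL4A1 and COL4A2 did not. With the trend on GC content and length removed (described below), the intervals of COL4A1 (0.02 to 0.11) and COL4A2 (0.08 to 0.13) overlapped as well. COL9A3 was the lower gene, at 153 CPM in GSK484 and 162 CPM in CON (log2 fold -0.08, interval -0.11 to -0.04). Its TPM did not differ in that direction (98.7 against 97.7), where the median log2 TPM fold of all genes was 0.10. COL1A1 (log2 fold 0.16, interval -0.00 to 0.33), COL5A2, COL6A1 and COL11A2 were within counting error.

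**Figure D4:**
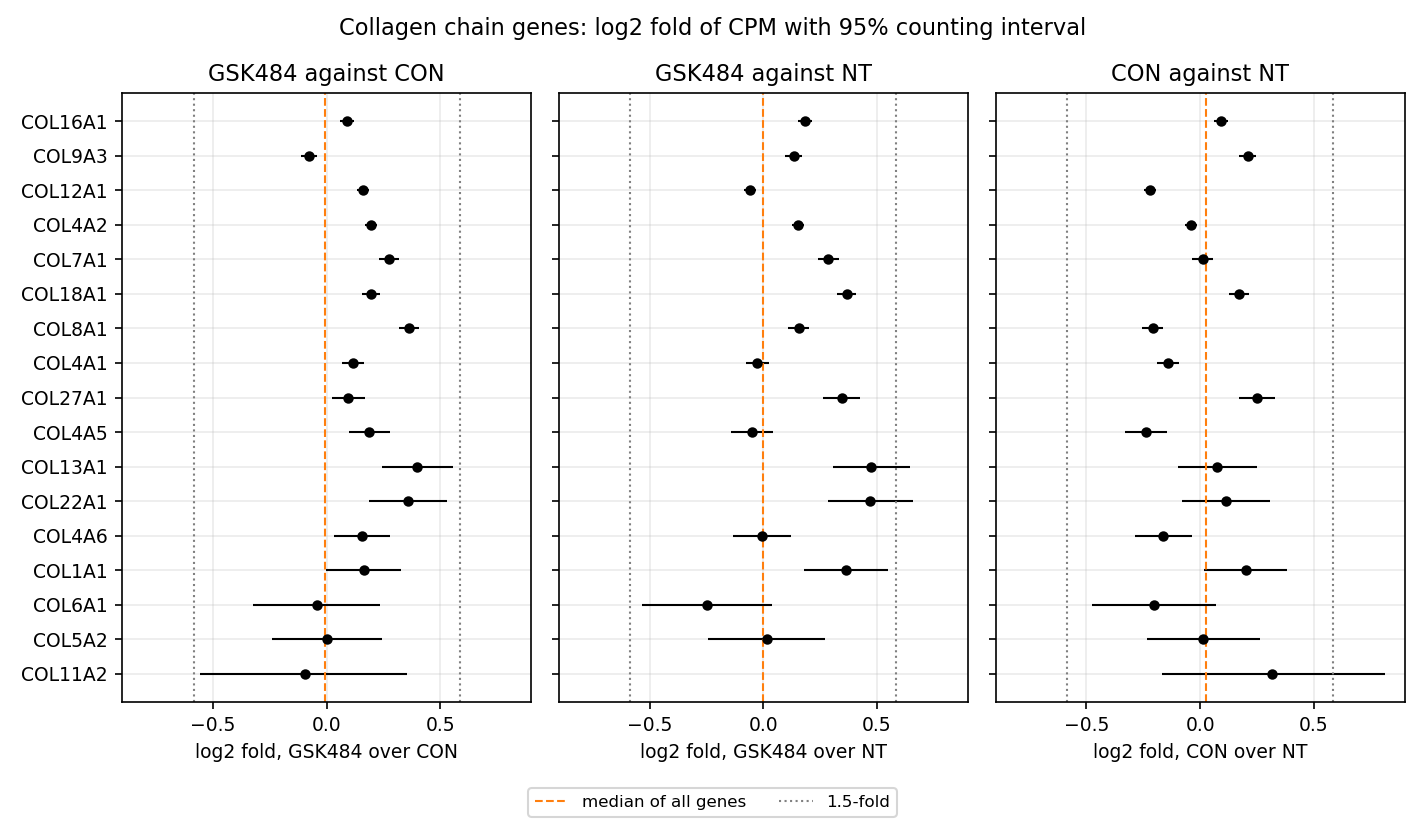
Log2 fold of CPM with its 95% counting interval for the 17 measured collagen chain genes in each comparison (a gene below 1 CPM in both libraries is left out), the first-named library over the second. For GSK484 against CON 12 intervals lie above 0, while for CON against NT 5 lie above and 6 below; dashed lines give the median of all genes and dotted lines a 1.5-fold difference.

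GSK484 against untreated cells shares its GSK484 library with the comparison above, so the results are not independent. Of 16 measured genes, 10 were higher in GSK484 and 1 was lower beyond counting error, beside 27.3% and 29.5% of 13209 genes. Again 0 genes reached a fold of 1.5, beside 1.38% of all genes called higher and 1.64% called lower, or a fold of 2, beside 0.265% and 0.28%. The median log2 fold was 0.15, against -0.00 over all genes. At 50 CPM or more, 6 of 8 collagen chain genes were higher and 1 was lower beyond counting error, where 41.9% of 4005 genes were higher and 33.6% lower. COL13A1 was at 9.28 CPM in GSK484 and 6.68 CPM in NT (1.39-fold, log2 fold 0.47, interval 0.31 to 0.65). COL22A1 was at 7.48 CPM and 5.40 CPM (log2 fold 0.47, interval 0.28 to 0.66). COL18A1 was at 136 CPM in GSK484 and 105 CPM in NT (log2 fold 0.37, interval 0.32 to 0.41). Of the fibrillar genes, COL1A1 was at 7.56 CPM against 5.88 CPM (log2 fold 0.36, interval 0.18 to 0.55), and COL27A1 was at 38.5 CPM against 30.3 CPM (log2 fold 0.34, interval 0.26 to 0.42). COL7A1 was at 113 CPM in GSK484 and 92.8 CPM in NT (log2 fold 0.29, interval 0.24 to 0.33).

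Type IV genes did not share one pattern against NT. COL4A2 was higher in GSK484 (343 CPM against 308 CPM, log2 fold 0.15, interval 0.13 to 0.18). COL4A1 (log2 fold -0.03, interval -0.08 to 0.02), COL4A5 (-0.05, interval -0.14 to 0.04) and COL4A6 (-0.01, interval -0.13 to 0.12) were within counting error. COL12A1 was the lower gene, at 293 CPM in GSK484 and 305 CPM in NT (log2 fold -0.06, interval -0.08 to -0.03). COL16A1 (0.18), COL9A3 (0.13) and COL8A1 (0.15) were higher by these log2 folds.

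The control compound against untreated cells gave differences in both directions. Beyond counting error 5 of 17 collagen chain genes were higher in CON and 6 lower, beside 35.5% and 29.4% of 13221 genes, and none of the 17 differed by 1.5-fold, beside 1.75% of all genes called higher and 6.41% called lower. At a fold of 2 these shares were 0.333% and 1.35%. The median log2 fold of the 17 genes was 0.01, against 0.03 over all genes. At 50 CPM or more, 3 of 8 collagen chain genes were higher and 4 lower beyond counting error, where 53% of 4067 genes were higher and 28% lower. All 4 type IV genes were lower in CON, with log2 folds of -0.24 for COL4A5 (interval -0.33 to -0.14), -0.16 for COL4A6, -0.14 for COL4A1 and -0.04 for COL4A2. COL12A1 was at 262 CPM in CON and 305 CPM in NT (log2 fold -0.22), and COL8A1 at 89.7 CPM and 104 CPM (log2 fold -0.21). COL27A1 (0.25), COL9A3 (0.21), COL1A1 (0.20), COL18A1 (0.17) and COL16A1 (0.09) were higher in CON by these log2 folds.

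Put as an order of libraries, 8 of 17 genes were higher in GSK484 than in both other libraries beyond counting error and 0 were lower than in both, beside 8.43% and 8.81% of all 13312 measured genes. The shares over all genes in this paragraph were not matched for depth. These 8 were COL16A1, COL4A2, COL7A1, COL18A1, COL8A1, COL27A1, COL13A1 and COL22A1. CON was below both other libraries for 6 genes (17.9% of all genes), which were COL12A1, COL8A1 and the 4 type IV genes, and above both for COL9A3 (18.4%). NT was below both for 5 genes (20.1%), among them COL18A1 and COL1A1, and above both for COL12A1 (20.5%). Neighbouring libraries were not separated by counting for COL7A1, COL13A1 and COL22A1 between CON and NT, nor for COL4A1, COL4A5 and COL4A6 between GSK484 and NT, nor for COL1A1 between GSK484 and CON. COL5A2, COL6A1 and COL11A2 were not separated between any libraries.

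Most measured collagen chain genes were rich in GC. The GC content of the longest annotated transcript had a median of 61.1% (46.3% to 67.4%) in the 17 measured genes, against 49.4% in the 26 other collagen chain genes and 48.2% in all 11778 protein-coding genes measured. COL12A1, COL8A1 and COL5A2 lay below that last median. Of the 17 genes 9 fell into the highest sixth of GC content, and 0 into the lowest. GC content moved with the differences between these libraries. Genes in the lowest sixth had a median log2 fold of 0.19 for GSK484 against CON, -0.18 for GSK484 against NT and -0.37 for CON against NT, while those in the highest sixth had -0.02, 0.13 and 0.15. After a smooth trend on GC content and effective length was removed, GSK484 exceeded CON for 10 of 17 collagen chain genes and lay below it for 1 (25.7% and 25.5% of all genes), with a median of 0.11. COL27A1 (0.01) and COL4A6 (0.12) were then within counting error, while COL13A1 (0.43), COL22A1 (0.37), COL8A1 (0.32) and COL7A1 (0.25) kept their direction. So did COL4A2 (0.11), COL18A1 (0.11), COL12A1 (0.11) and COL4A1 (0.06), at smaller values than without the correction. Against NT, 10 were higher and 2 lower in GSK484 (23.5% and 22.5% of all genes), with COL9A3 (-0.05) and COL6A1 (-0.33) now lower and COL12A1 (0.04) now higher. For CON against NT the counts fell to 3 higher and 5 lower (27.2% and 25.6% of all genes), with COL16A1 (-0.03), COL9A3 (0.03), COL4A2 (0.01) and COL4A6 (-0.11) within counting error and COL7A1 (-0.10) now lower. The part of GC content, and of the fibroblast marker list given above, in these differences was not tested beyond this.

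**Figure D5:**
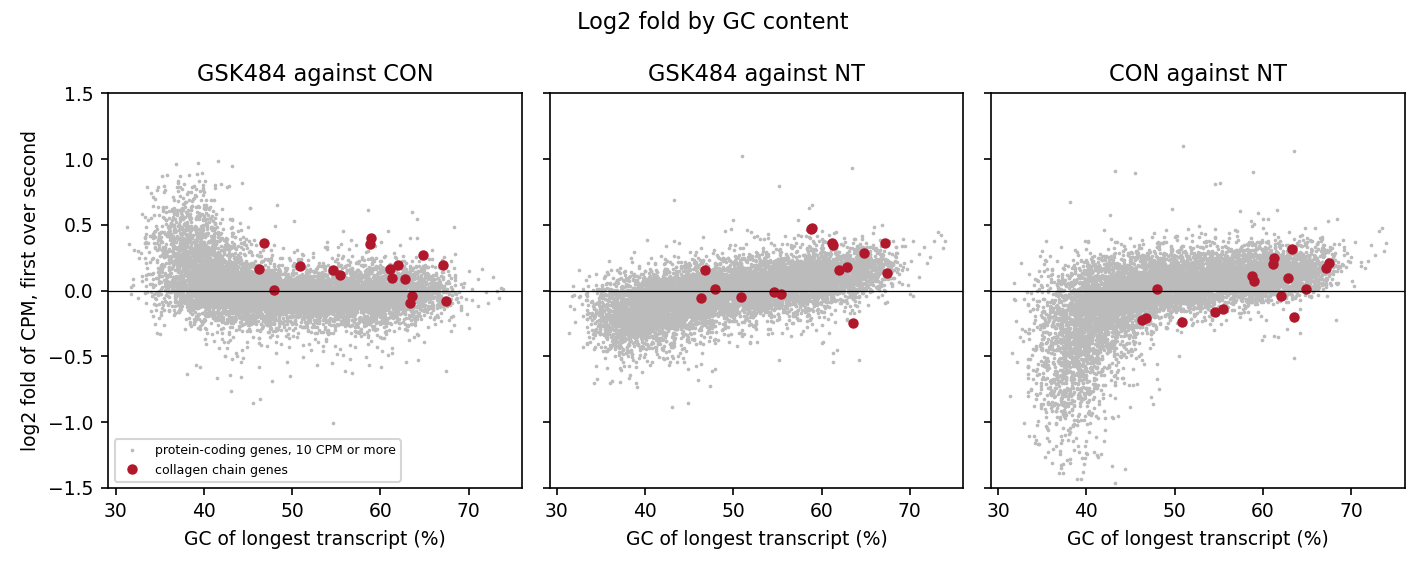
Log2 fold of CPM (vertical axis, first-named library over the second) against GC content of the longest transcript for 8656 protein-coding genes of 10 CPM or more (grey) and the measured collagen chain genes (red). Grey points fall toward low GC content for CON against NT, where 2 genes lie beyond the axis limit of 1.5 (1 for GSK484 against NT); the collagen chain genes lie between 46.3% and 67.4% GC.

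The effective length that enters the TPM also differed between libraries for some genes, because it follows the estimated mix of transcripts. For COL1A1 it was 3100 bases in GSK484, 3754 in CON and 3946 in NT, so that its TPM differed more than its CPM (log2 TPM fold 0.53 for GSK484 against CON, pseudocount 0.1, beside 0.16 by CPM). COL4A6 had 4443, 5234 and 5100 bases, and its log2 TPM fold was 0.49 beside 0.15 by CPM. The median log2 TPM fold of the measured collagen chain genes for GSK484 against CON was 0.26, where that of all genes was 0.10. Effective lengths of COL16A1 (1872 to 2087 bases) and COL7A1 (2134 to 2563 bases) were well short of their longest annotated transcripts (5736 and 9276 bases).

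Genes that act around collagen were set beside the chains. Of 10 receptor genes 6 were measured, and 4 exceeded CON in the GSK484 library and 1 lay below it beyond counting error, beside 26.9% and 27.4% of all genes (median log2 fold 0.16). ITGB1, the beta chain of collagen-binding integrins, was the most abundant, at 192 TPM in GSK484, 151 in CON and 231 in NT. Its log2 fold against CON was 0.23. The alpha chain gene ITGA2 was at 84.1 CPM in GSK484, against 67.6 CPM in CON (log2 fold 0.31), but 122 CPM in NT. ITGA1 had a log2 fold of 0.38 against CON, and the endocytic receptor gene MRC2 of 0.09. Removing the trend on GC content and length left a receptor median of 0.05 against CON, with 2 higher and 1 lower, beside 25.7% and 25.5% of all genes. For GSK484 against NT 1 of 5 was higher and 2 were lower, beside 27.3% and 29.5%. For CON against NT 1 of 6 was higher and 3 were lower, beside 35.5% and 29.4%. The collagen-activated kinase gene DDR1 was the lower one against CON (log2 fold -0.06, interval -0.08 to -0.04). It was at 370 CPM in GSK484, 385 CPM in CON and 371 CPM in NT. Its TPM was higher in GSK484 than in CON (130 against 124), where the median log2 TPM fold of all genes was 0.10. The related gene DDR2 was not measured.

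Of 18 measured genes for folding, secretion and processing of procollagen, 3 were higher with GSK484 than with CON and 6 lower, beside 26.9% and 27.4% of all genes. Their median log2 fold was -0.02, and their difference from the chains was not tested. MIA3, which loads procollagen into transport carriers, had the largest difference beyond counting error (log2 fold 0.34). It was at 30.7 CPM in GSK484 and 24.2 CPM in CON, but 35.3 CPM in NT. BMP1, which trims procollagen, was at a log2 fold of -0.13 against CON. PPIB (-0.12), a prolyl isomerase gene and the most abundant of the list at 1166 TPM in GSK484, and SERPINH1 (-0.11), the collagen-specific chaperone gene, were also lower. With the trend removed, the log2 fold of PPIB was 0.01. ADAMTS2, which removes the amino-terminal propeptide of fibrillar procollagens, had a count of 0 in all 3 libraries. Of 11 other measured basement membrane genes 6 were higher with GSK484 than with CON and 1 lower (median 0.03), beside 26.9% and 27.4% of all genes. Once the trend was removed, 4 were higher and 3 lower, with a median of -0.01. Before this, FREM2 had a log2 fold of 0.29, the type IV crosslinking peroxidase gene PXDN of 0.21 and the perlecan gene HSPG2 of 0.15. With the trend removed these values were 0.15, 0.16 and 0.05. For GSK484 against NT the log2 fold was -0.34 for FREM2, 0.20 for PXDN and 0.29 for HSPG2. SPARC, a collagen-binding matrix protein gene and the most abundant of this list, was the lower one against CON. It was at 344 TPM in GSK484 and 358 in CON (log2 fold of CPM -0.19). NID1, which links laminin to type IV collagen, had 0.014 CPM or less, below the floor in each library.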

How the data were processed

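Gene-level RNA-seq values of 3 libraries were used. TRIzol extraction, a stranded kit for total RNA and paired reads of 125 bp were used, per the labels' protocols. Per the submitters' processing notes, RSEM and hg19 were used. For the versions, aligner, annotation and strand setting, the sources used here give nothing. Each deposited expected count estimates the reads of a gene without normalization, per the file headers. TPM as deposited is scaled to effective length by the authors' software. Expected counts were scaled with TMM factors (1.01 in GSK484, 0.98 in CON, 1.01 in NT; edgeR 4.0.16 in R 4.3.3). A prior count of 0.5 entered each log2 fold. Intervals were exact (Clopper-Pearson, scipy 1.17.1) for the share of one library in the summed counts of both, after rounding the expected counts. The interval code was tested on simulated data. PCR copies are not separable from molecules, so intervals cover counting error only.

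Symbols were matched by gene ID for 50276 of 56632 genes with a table of gene names and with GENCODE release 29, which also gave GC content. No coordinates were taken from it, since its build is not hg19. Counts were whole (within 0.005) in all 3 libraries for 42 of the 43 collagen chain genes. Annotated antisense partners of COL4A2, COL18A1 and COL5A1 were at 0.126 CPM or less. Promoter windows were found for 11 of the 17 measured genes. The GC and length trend was fitted with natural splines (4 degrees of freedom each) to 8648 protein-coding genes of at least 10 mean CPM. Named genes were every measured collagen chain gene, with the others given by range and counts or where a small count called for names, and, from each other list, the most abundant gene and up to 4 with the largest GSK484-to-CON difference past counting error, with lists of 5 or fewer measured genes in full. 1 epithelial marker is not reported here. DDR1, DDR2, ADAMTS2, NID1, DCN and LUM were chosen after their values were seen. The members and lists were chosen with earlier results of these data known. Alternatives were total counts, DESeq2 1.42.0 size factors, other minimum levels, TPM, whole counts only, a prior count of 2 and removal of the trend.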

Additional observations from a re-analysis of the deposited data

How the results depend on the processing

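No paired analysis was possible because each group had 1 library, and for the same reason no library could be left out. Counts of collagen chain genes and medians were computed under 9 other settings in each comparison. Of these and the level results, 160 values stayed in place, 14 moved and 5 changed sign. For GSK484 against CON the median log2 fold was 0.26 with deposited TPM at a pseudocount of 0.1 and 0.24 at a pseudocount of 1. With no minimum CPM, 1 gene was higher by 1.5-fold (COL4A4), 1 was lower by 2-fold and by 1.5-fold (COL2A1), and 2 were lower beyond counting error. For GSK484 against NT with no minimum the median was 0.34 and 1 gene was higher by 1.5-fold (COL6A2). With TPM at a pseudocount of 0.1, 1 gene was higher by 1.5-fold (COL1A1), and with the GC and length trend removed 2 genes were lower.

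The median for CON against NT had no stable sign. It was -0.0289 with total counts, -0.0058 with DESeq2 size factors, -0.0934 and -0.0554 with TPM at pseudocounts of 0.1 and 1, -0.0292 with the trend removed and 0.15 with no minimum CPM. With no minimum, 1 gene was higher by 2-fold and 2 by 1.5-fold, and with the trend removed 3 were higher beyond counting error. Among single genes called beyond counting error, 10 values changed sign. With TPM at pseudocounts of 0.1 and 1 these were COL9A3 (0.0148 and 0.0147) and COL27A1 (-0.0020 and -0.0018) for GSK484 against CON, and COL12A1 (0.0131 and 0.0130) for GSK484 against NT. With the trend removed they were COL9A3 (-0.0490) and COL12A1 (0.0367) for GSK484 against NT, and COL16A1 (-0.0292) and COL4A2 (0.0106) for CON against NT. Over all genes, the median log2 fold for GSK484 against CON was 0.096 by TPM (pseudocount 0.1) and -0.005 by CPM. It was -0.081 by TPM and 0.027 by CPM for CON against NT. For GSK484 against NT it was -0.004 and -0.003. The cause of the changes of sign was not tested. TPM keeps no depth, so its folds carry no interval. The 10 highest genes by TPM held 10 of the 10 highest by CPM per kb. Both measures divide by the same effective length, so this overlap was fixed in advance and does not check the order of levels. COL5A2 and COL11A2, among the lowest measured genes, were within counting error with and without the trend.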
